A study of Mus musculus with 8 samples.

Results

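The Wnt pathway genes measured here are 52 genes that encode the ligands, receptors, intracellular relays, transcription factors and secreted inhibitors of Wnt signaling. Their probes were found by matching the accession of each non-control probe of the array to the gene, and 51 of the 52 genes had at least 1 probe, 79 probes in all of 41174 on the array. No probe matched Lrp5, a co-receptor of the β-catenin branch. Hearts were taken at E18.5 from C57BL/6 embryos, 4 wild type (WT) and 4 labelled SIRT1 KO, a whole-body germ-line knockout of the deacetylase SIRT1, from mice on a chow diet with no further treatment. Total RNA of each heart was labelled with Cy3 and hybridized to its own one-color Agilent whole mouse genome array. The study asked what SIRT1 does in heart development, and the comparison made here is SIRT1 KO against WT. A heart holds several cell types, so fewer cells of a type and less RNA per cell cannot be told apart.

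Wnt proteins are lipid-modified secreted ligands that bind Frizzled receptors together with a co-receptor. In the canonical branch, a signal through Frizzled and LRP5 or LRP6 reaches Dishevelled and stops the Axin, APC and GSK3β complex from marking β-catenin for degradation, and β-catenin then acts with TCF/LEF factors at target genes. In the non-canonical branches, ligands such as WNT5A and WNT11 act through Frizzled, ROR2 or RYK on planar cell polarity and cell movement, and in the heart the pathway takes part in progenitor growth, outflow tract and valve formation and the ordering of cardiomyocytes.

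All 4 WT arrays lay on 1 slide and all 4 SIRT1 KO arrays on the other, so slide and genotype cannot be told apart in any comparison below. The 75th percentile of the signal was 939 to 1033 on the WT arrays and 777 to 906 on the SIRT1 KO arrays, and 59.5% to 64.9% of the probes were well above background. The brighter of both Sirt1 probes, A_52_P358612, was higher in the hearts labelled SIRT1 KO (0.58 ± 0.14 against 0.04 ± 0.19, log2 signal, SD, n = 4 each; limma adjusted p = 0.0323), and the other, A_51_P141152, differed by -0.11 on the log2 scale (limma adjusted p = 0.589). Whether either probe lies in the deleted part of the gene is not given in the sources used here, so the label SIRT1 KO was taken as given and each direction below rests on it. Cardiomyocyte markers were present in every heart, 4 of 5 with higher values in the SIRT1 KO hearts and a summed log2 level of 9.55 to 9.69 in the WT and 9.72 to 9.92 in the SIRT1 KO hearts. On the brightest probe of each marker 0 of 5 were called by limma, while a second probe of Myh7, A_52_P88033, was higher (log2 fold change 0.36, limma adjusted p = 0.0283), and the part of this shift in the results below was not tested.

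The promoters of the genes on which the results turn are shown as the 250 bases before the RefSeq start site (GRCm38.p6), 5′ to 3′ on the strand of the gene. Ror2, Dvl2 and Lef1 are shown because they had the smallest p-values among the Wnt pathway genes, and Wnt11 because the window shown holds a TCF/LEF core match. Capitals mark CTTTGAA or CTTTGAT, on either strand, as the TCF/LEF core, and CACGTG as the E-box.
Ror2, chr13:53286125-53286374, minus strand: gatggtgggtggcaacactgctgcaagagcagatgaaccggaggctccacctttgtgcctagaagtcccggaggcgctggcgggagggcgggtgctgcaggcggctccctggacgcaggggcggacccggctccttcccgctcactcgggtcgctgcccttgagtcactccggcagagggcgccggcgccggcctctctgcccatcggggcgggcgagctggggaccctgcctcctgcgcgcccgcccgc
Dvl2, chr11:70000342-70000591, plus strand: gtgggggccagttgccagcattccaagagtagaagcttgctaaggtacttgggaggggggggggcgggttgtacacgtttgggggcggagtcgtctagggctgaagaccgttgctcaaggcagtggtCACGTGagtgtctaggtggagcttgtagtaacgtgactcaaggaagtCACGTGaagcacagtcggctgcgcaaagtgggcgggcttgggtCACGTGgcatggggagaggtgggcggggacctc
Lef1, chr3:131110047-131110296, plus strand: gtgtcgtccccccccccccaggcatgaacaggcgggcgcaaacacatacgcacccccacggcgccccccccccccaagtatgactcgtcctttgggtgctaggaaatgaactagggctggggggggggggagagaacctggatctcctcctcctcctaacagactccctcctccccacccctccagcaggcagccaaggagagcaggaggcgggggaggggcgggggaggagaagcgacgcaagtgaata
Wnt11, chr7:98834862-98835111, plus strand: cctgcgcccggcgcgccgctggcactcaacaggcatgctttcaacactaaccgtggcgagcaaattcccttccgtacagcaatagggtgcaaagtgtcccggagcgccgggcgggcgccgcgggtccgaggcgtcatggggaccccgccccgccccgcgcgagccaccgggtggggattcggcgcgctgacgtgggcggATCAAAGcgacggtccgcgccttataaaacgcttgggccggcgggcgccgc

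The table of promoters held 47 start sites of 36 of the Wnt pathway genes. The TCF/LEF core was present in 3 of the 47 windows (of Wnt11, Wnt5b and Dkk1), and in 7.48% of all 32851 promoter windows of the same length. The E-box, which was searched for after the Dvl2 sequence had been seen, was present in 5 of the 47 windows and in 6.02% of all windows, and the Dvl2 window held 3 copies. The Ror2 window held neither motif, and neither did the Lef1 window shown. A window at another annotated start of Lef1 held 1 E-box, and the window at another start of Wnt11 held neither motif. These matches are letters in a window, and binding was not measured.

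Of the 51 Wnt pathway genes with a probe, 44 had at least 1 probe well above background on 4 or more of the 8 arrays and were tested (68 probes), and 43 of these were well above background on all 8 arrays on their brightest tested probe. Wnt6, a ligand, was well above background on 3 WT and 2 SIRT1 KO arrays. For 7 genes no probe was well above background on any array, and these included Axin2, a feedback inhibitor that canonical signaling induces, and Wnt5a, the prototype of the non-canonical ligands. The 5 others were the ligand Wnt2b, the antagonists Dkk1, Sfrp4 and Sfrp5, and Rspo3, which raises the level of Frizzled at the cell surface. A change of these 7 genes below the background of the array was not detectable here. The log2 signal of Axin2, relative to the 75th percentile of the array, was -7.78, -6.00, -6.31 and -6.67 in WT hearts 1 to 4 and -5.95, -5.92, -6.66 and -5.87 in SIRT1 KO hearts 1 to 4. That of Wnt5a was -5.95, -5.84, -5.67 and -5.66 in the WT hearts and -6.49, -5.62, -6.80 and -5.55 in the SIRT1 KO hearts. The genotypes overlapped for both genes. Sfrp5, also below background in every heart, lay at -6.83 to -6.45 in the WT hearts and at -6.15 to -5.75 in the SIRT1 KO hearts, with no overlap. It was too dim to be tested in the reported fit.

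Ror2 was the only one of the 44 tested Wnt pathway genes that passed limma at an adjusted p of 0.05, and it was higher in the SIRT1 KO hearts. Across all probes tested, 4.88% were called (1250 of 25615) and 3.97% were called higher, against 1 of the 68 probes of Wnt pathway genes; counted by gene, 4.58% of all genes were called. The 44 genes were otherwise balanced, 24 higher and 20 lower, with a median log2 fold change of 0.04 beside -0.01 over all 13594 genes tested. Unadjusted p-values under 0.05 were found for 5 of the 68 probes, beside 21.5% of all probes. The genotypes did not overlap on 3 of the 68 probes, beside 13.7% of all probes, and on the brightest tested probe of 2 of the 44 genes, Ror2 and Dvl2, beside 14.0% of all genes. The median standard error of a log2 fold change over these 68 probes was 0.115, and the interval of each gene is drawn in the plot of fold changes by role.

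**Figure D1:**
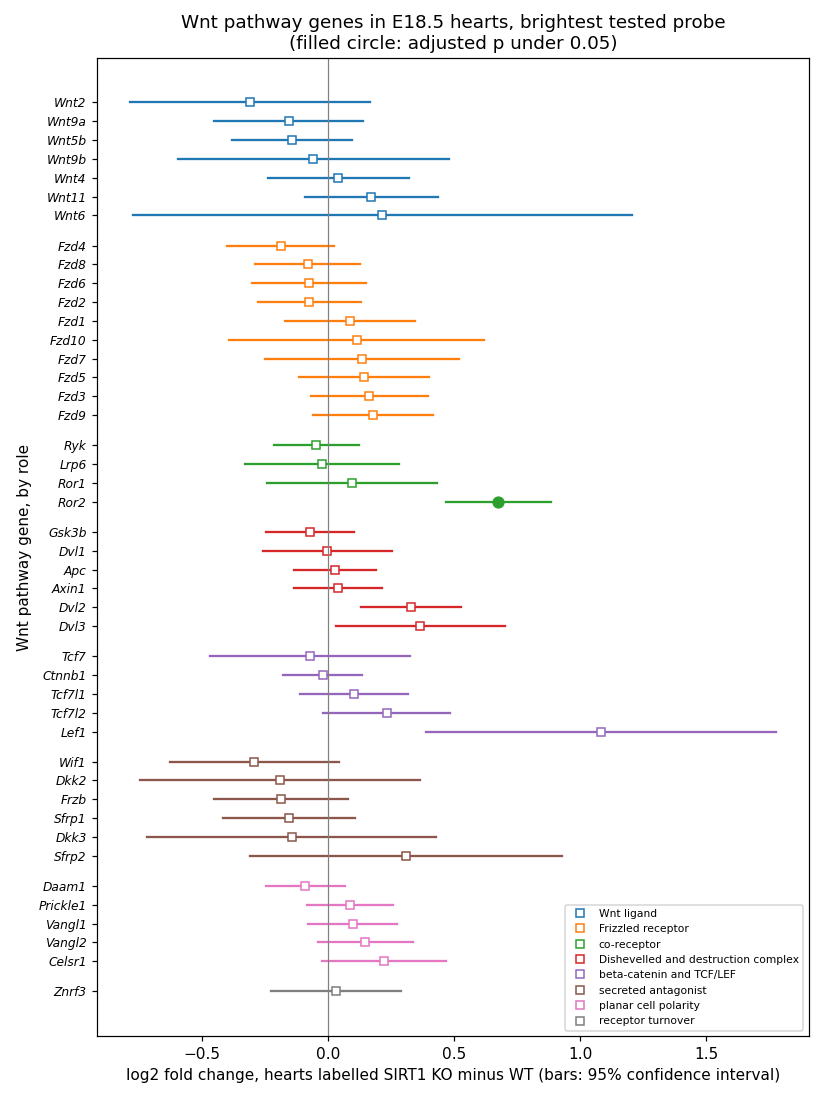
Log2 fold change of the 44 tested Wnt pathway genes on their brightest tested probe, hearts labelled SIRT1 KO minus WT (4 against 4), grouped by role; symbols are the fitted values and bars their 95% confidence intervals. Ror2, at 0.68, is the only filled symbol (limma adjusted p under 0.05), and Lef1 has the largest value, 1.08, with an interval from 0.39 to 1.78.

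Ror2 encodes a receptor tyrosine kinase that binds WNT5A and acts in the non-canonical branch. Its log2 signal on probe A_51_P234365 was -2.63, -2.88, -2.79 and -2.60 in WT hearts 1 to 4 and -1.99, -2.04, -1.96 and -2.20 in SIRT1 KO hearts 1 to 4. Every SIRT1 KO heart was above every WT heart, and the gap between the nearest hearts, WT 4 and SIRT1 KO 4, was wider than the SD of either genotype (0.13 in WT, 0.11 in SIRT1 KO). The log2 fold change was 0.68 (SE 0.09, 95% confidence interval 0.47 to 0.88), a signal 1.60-fold higher (limma adjusted p = 0.00479; exact two-sided permutation p = 0.0286, the smallest that 4 against 4 hearts can give). In the 8 fits that each left out a heart, the probe was called every time, with a log2 fold change of 0.62 to 0.73 and a largest adjusted p of 0.0210.

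A second Ror2 probe, A_51_P234371, was dim, well above background on 3 WT and 2 SIRT1 KO arrays. Its log2 signal was -5.61, -5.54, -5.31 and -5.33 in the WT hearts and -4.72, -5.57, -5.50 and -5.36 in the SIRT1 KO hearts. Here only SIRT1 KO heart 1 stood above the WT hearts. The log2 fold change was 0.16 (SE 0.18, 95% confidence interval -0.25 to 0.57; limma adjusted p = 0.643), and it turned below 0 without SIRT1 KO heart 1 (-0.03). The rise of Ror2 therefore rests on 1 probe.

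Of the other receptors that act beside Frizzled, none passed the test. Ror1, the paralog of Ror2, had a log2 fold change of 0.10 (SE 0.15), Ryk, an atypical Wnt receptor, one of -0.05 (SE 0.07), and Lrp6, the co-receptor of the canonical branch, one of -0.02 (SE 0.13). The 95% confidence interval of Ror1 ran from -0.24 to 0.43 and that of Ryk from -0.22 to 0.12. Both lay below that of Ror2, but the difference between the genes was not tested.

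Markers of neural and neural crest cells had higher values in the SIRT1 KO hearts alongside Ror2. Of the 4 genes used, 3 were tested and all 3 had higher values in the SIRT1 KO hearts, and the log2 of the summed level of the list was -1.87 to -1.58 in the WT hearts and -1.48 to -1.19 in the SIRT1 KO hearts. Sox10, a transcription factor of neural crest and Schwann cells, passed the test (log2 fold change 0.80, limma adjusted p = 0.0199), while Th, a sympathetic marker, did not rise well above background in any heart. The part of these cells in the Ror2 result was not tested.

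**Figure D2:**
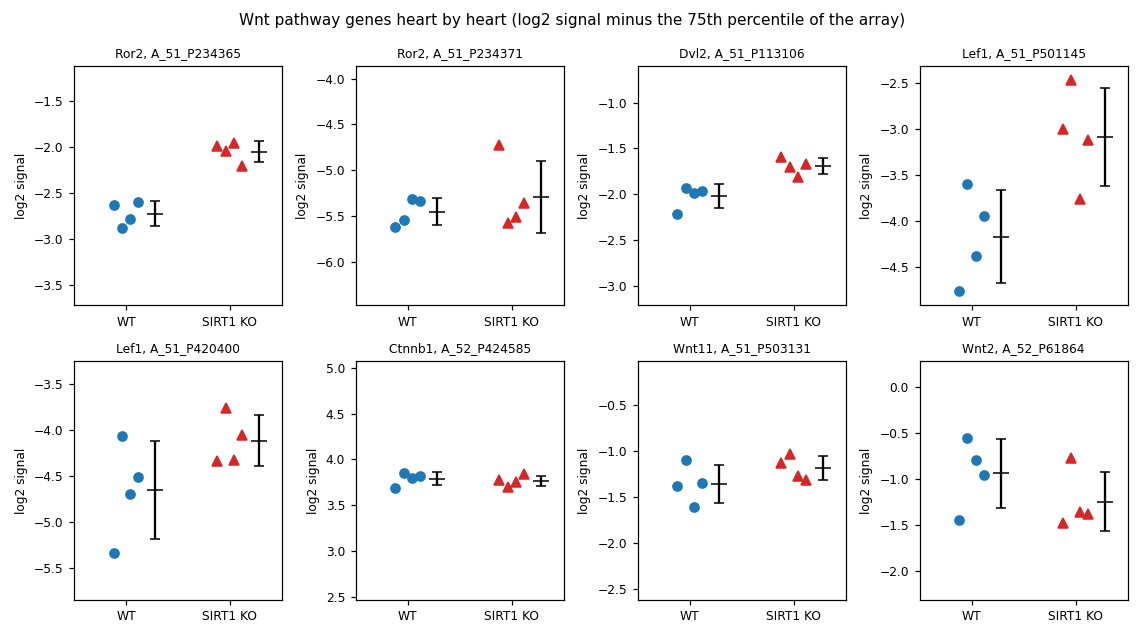
Log2 signal minus the 75th percentile of the array for 8 probes of Wnt pathway genes, each symbol 1 heart (circles WT, triangles SIRT1 KO, 4 each in the order of their replicate numbers) and each bar the mean and SD of a genotype; every panel spans the same log2 range. The genotypes separate for Ror2 on probe A_51_P234365 and for Dvl2, and overlap on the other 6 probes.

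The Dishevelled proteins carry the signal from Frizzled into both branches. The log2 signal of Dvl2 was -2.22, -1.93, -1.98 and -1.96 in the WT hearts and -1.60, -1.70, -1.81 and -1.67 in the SIRT1 KO hearts. The genotypes did not overlap, the nearest hearts being WT 2 and SIRT1 KO 3, yet the log2 fold change of 0.33 (SE 0.09) did not pass the test (limma adjusted p = 0.0702; exact permutation p = 0.0286). Dvl3 had a log2 fold change of 0.37 (SE 0.15, limma adjusted p = 0.195) with overlapping genotypes, and it passed without WT heart 4, the highest WT heart at -4.53. Dvl1 differed by 0.00 (SE 0.11) on its brighter probe and by 0.08 (SE 0.12) on the other.

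The scaffolds and the kinase of the destruction complex differed little between the genotypes. Axin1, the scaffold, had a log2 fold change of 0.04 (SE 0.08) and Gsk3b, the kinase, -0.07 (SE 0.08) on its brighter probe and 0.03 (SE 0.08) on the other. The 4 tested probes of Apc, the second scaffold, lay between -0.01 and 0.03. None of these genes passed the test.

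β-catenin, which joins cadherin contacts to the cytoskeleton as well as carrying the canonical signal to the nucleus, was measured by 2 bright probes. The log2 signal of Ctnnb1 on probe A_52_P424585 was 3.69, 3.85, 3.80 and 3.82 in the WT hearts and 3.78, 3.71, 3.76 and 3.84 in the SIRT1 KO hearts. All 8 hearts lay within a range narrower than the gap between the genotypes for Ror2. The log2 fold change was -0.02 (SE 0.07, 95% confidence interval -0.18 to 0.14; limma adjusted p = 0.893), and on probe A_51_P272046 it was 0.06 (SE 0.07, limma adjusted p = 0.630).

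Lef1, a nuclear partner of β-catenin that is also induced by the pathway, had the largest log2 fold change of the 44 genes but did not pass the test. Its log2 signal on probe A_51_P501145 was -4.77, -3.60, -4.38 and -3.94 in the WT hearts and -2.99, -2.47, -3.76 and -3.12 in the SIRT1 KO hearts. In 3 of the 4 SIRT1 KO hearts the signal was above every WT heart, and SIRT1 KO heart 3 lay below WT heart 2. The log2 fold change was 1.08 (SE 0.31, a ratio of 2.12; limma adjusted p = 0.0836; exact permutation p = 0.0571), and the hearts of each genotype spread widely, with SDs of 0.51 and 0.53 beside medians over all genes of 0.120 in WT and 0.139 in SIRT1 KO hearts.

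The other Lef1 probe, A_51_P420400, gave -5.34, -4.07, -4.69 and -4.50 in the WT hearts and -4.33, -3.75, -4.32 and -4.05 in the SIRT1 KO hearts. Both probes had their highest value in heart 2 of each genotype, and their lowest WT value in heart 1. This probe gave a log2 fold change of 0.54 (SE 0.25, limma adjusted p = 0.256), with 3 WT and 4 SIRT1 KO arrays well above background. When each heart was left out, the value ran from 0.31 (without WT heart 1) to 0.73 (without WT heart 2), and the probe was not called in any of these fits. Lef1 passed on the first probe in the fit without SIRT1 KO heart 3 (log2 fold change 1.31, limma adjusted p = 0.0361) and with the replicate number as a block (adjusted p = 0.0374). T cells of the thymus also express Lef1, and 0 of the 4 thymus markers on the array were bright enough to be tested, with a summed log2 level of -5.54 to -3.60 in the WT hearts and -5.002 to -4.48 in the SIRT1 KO hearts. Of these markers, Foxn1 was at background in every heart, and the part of thymus RNA in the Lef1 value was not tested.

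Of the other TCF factors, none passed the test. Tcf7l2 had a log2 fold change of 0.23 (SE 0.11, limma adjusted p = 0.265) on its brightest probe and 0.07 and 0.10 on the others. Tcf7l1, which acts mostly as a repressor, had 0.10 (SE 0.10) and Tcf7, a factor of T cell development, -0.07 (SE 0.18).

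**Figure D3:**
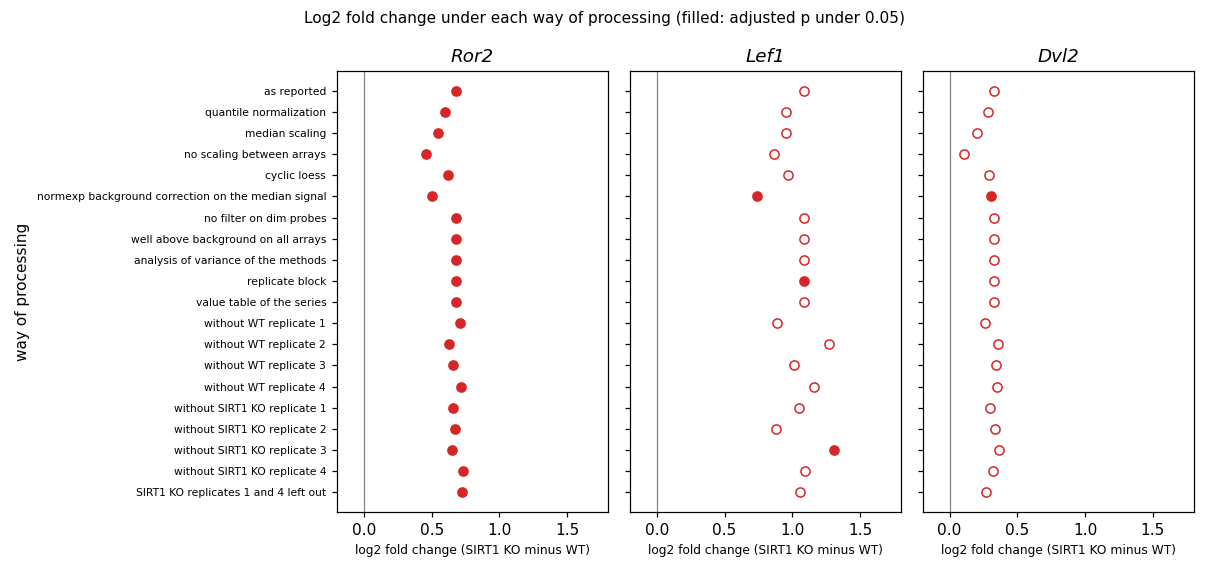
Log2 fold change (SIRT1 KO minus WT) of Ror2, Lef1 and Dvl2 on their brightest probe under the reported processing and 19 alternatives (rows); a filled symbol passed an adjusted p of 0.05. Ror2 is filled in every row, from 0.46 with no scaling to 0.73, Lef1 in 3 alternatives and Dvl2 in 1.

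Of the 9 ligands listed, 7 were tested and none passed, with log2 fold changes from -0.31 to 0.22 and a median of -0.06. Wnt11, a non-canonical ligand of the outflow tract and developing myocardium, had a log2 signal of -1.38, -1.10, -1.61 and -1.35 in the WT hearts and -1.13, -1.03, -1.28 and -1.31 in the SIRT1 KO hearts. The genotypes overlapped, and the log2 fold change was 0.17 (SE 0.12, 95% confidence interval -0.09 to 0.44; limma adjusted p = 0.424). It ran from 0.09 (without WT heart 3) to 0.26 (without WT heart 2) when each heart was left out. Wnt2, a canonical ligand of early cardiac progenitors, had -1.45, -0.56, -0.79 and -0.96 in the WT hearts and -1.48, -0.77, -1.36 and -1.38 in the SIRT1 KO hearts. WT heart 1 lay with the lower SIRT1 KO hearts, SIRT1 KO heart 2 lay among the WT hearts, and the log2 fold change was -0.31 (SE 0.21, 95% confidence interval -0.79 to 0.17; limma adjusted p = 0.430). When each heart was left out, the Wnt2 value ran from -0.48 (without WT heart 1) to -0.18 (without WT heart 2).

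Among the remaining ligands, Wnt9a and Wnt9b, which act in valve and endocardial development, had log2 fold changes of -0.15 (SE 0.13) and -0.06 (SE 0.24). Wnt4 had 0.04 (SE 0.12). The probes of Wnt5b differed in sign, -0.14 (SE 0.10) on the brighter and 0.14 (SE 0.14) on the dimmer, and neither passed. Wnt6 spread over more than 2 log2 units among the WT hearts (-6.50 to -4.43), and its log2 fold change of 0.22 had an SE of 0.44.

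All 10 Frizzled receptors were tested, with 6 higher, 4 lower, a median log2 fold change of 0.10 and a range from -0.19 to 0.18. The lowest value was that of Fzd4, a receptor of endothelial cells (-0.19, SE 0.09, limma adjusted p = 0.286), and the highest that of Fzd9 (0.18, SE 0.11, limma adjusted p = 0.362). Endothelial markers ran in the same direction as Fzd4: 5 of 5 had lower values in the SIRT1 KO hearts, 0 of them called, with a summed log2 level of 5.16 to 5.37 in the WT hearts and 4.97 to 5.24 in the SIRT1 KO hearts, and their part in the Fzd4 value was not tested. The dimmer probe of Fzd5 had 0.31 (SE 0.12, limma adjusted p = 0.183), beside 0.14 on the brighter one. None of the 15 tested Frizzled probes passed.

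Secreted antagonists bind the ligands (the SFRP proteins, FRZB and WIF1) or the LRP co-receptors (the Dickkopf proteins). Of the 6 tested, 5 had lower values in the SIRT1 KO hearts and 1 a higher value, with a median log2 fold change of -0.17, and none passed the test. Wif1 had -0.29 (SE 0.15, limma adjusted p = 0.295), Dkk2 -0.19 (SE 0.25), Frzb -0.19 (SE 0.12), Sfrp1 -0.15 (SE 0.12) and Dkk3, a divergent Dickkopf, -0.14 (SE 0.25). Sfrp2, which is made by mesenchymal cells, was the exception at 0.31 (SE 0.27, limma adjusted p = 0.548). Epicardial markers had lower values alongside this group: 4 of 4 were lower, 0 of them called, with a summed log2 level of 3.75 to 4.00 in the WT hearts and 2.9997 to 3.77 in the SIRT1 KO hearts. The part of the epicardium in these values was not tested.

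The planar cell polarity proteins orient cells within a tissue. All 5 genes listed were tested, 4 were higher and 1 lower, none passed, and the median log2 fold change was 0.10. Celsr1, an atypical cadherin, had 0.22 (SE 0.11, limma adjusted p = 0.274), Vangl2, a core membrane protein, 0.15 (SE 0.08, limma adjusted p = 0.340), Prickle1, its cytoplasmic partner, 0.09 (SE 0.07), and Daam1, a formin that links Dishevelled to actin, -0.09 (SE 0.07). The 3 probes of Vangl1 disagreed in sign. The brightest, A_52_P449417, gave 0.10 (SE 0.08), whereas A_52_P350687 gave -0.25 (SE 0.13) and A_52_P1037117 -0.14 (SE 0.07, limma adjusted p = 0.282).

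On probe A_52_P1037117 the log2 signal of Vangl1 was -3.17, -3.21, -3.07 and -3.22 in the WT hearts and -3.32, -3.27, -3.26 and -3.40 in the SIRT1 KO hearts. These genotypes did not overlap, although the gap between the nearest hearts was within the SD of either genotype (0.07 in WT, 0.06 in SIRT1 KO). On the brightest probe the signal was 2.52, 2.38, 2.61 and 2.41 in the WT hearts and 2.55, 2.58, 2.66 and 2.52 in the SIRT1 KO hearts, with overlap. Of the 19 Wnt pathway genes with more than 1 tested probe, 12 had log2 fold changes of 1 sign on all of them. The direction of Vangl1 is therefore not settled by these probes. Znrf3, a ubiquitin ligase that removes Frizzled from the membrane, had 0.03 (SE 0.11).

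Heart 2 was the highest WT heart in 21 of the 44 genes (3677 of all 13536 genes) and the highest SIRT1 KO heart in 13 (2770 of all 13536). In 8 of the 44 genes (18.2%), it was the highest in both genotypes, beside 8.61% of all genes, and the joint count is to be read beside these separate counts. The 8 genes were Dkk3, Fzd4, Fzd7, Lef1, Sfrp2, Wnt11, Wnt2 and Wnt5b, and they comprise ligands, receptors, antagonists and a nuclear factor. Heart 1 was the highest in both genotypes in 1 gene (2.27%, beside 10.2% of all genes), heart 3 in 2 (4.55%, beside 6.71%) and heart 4 in 5 (11.4%, beside 8.26%). These counts are a description with no test, and the labels do not say that hearts with 1 number come from 1 litter.

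Dkk3 and Sfrp2 show this spread heart by heart. Dkk3 was 0.13, 0.67, -0.05 and -0.03 in the WT hearts and -0.05, 0.75, -0.42 and -0.13 in the SIRT1 KO hearts. Sfrp2 was 0.71, 1.96, 1.18 and 1.65 in the WT hearts and 1.53, 2.21, 1.54 and 1.46 in the SIRT1 KO hearts. Heart 2 was the highest of its genotype for both genes, and for Dkk3 it stood further above the next heart than the genotype means stood apart (-0.14).

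**Figure D4:**
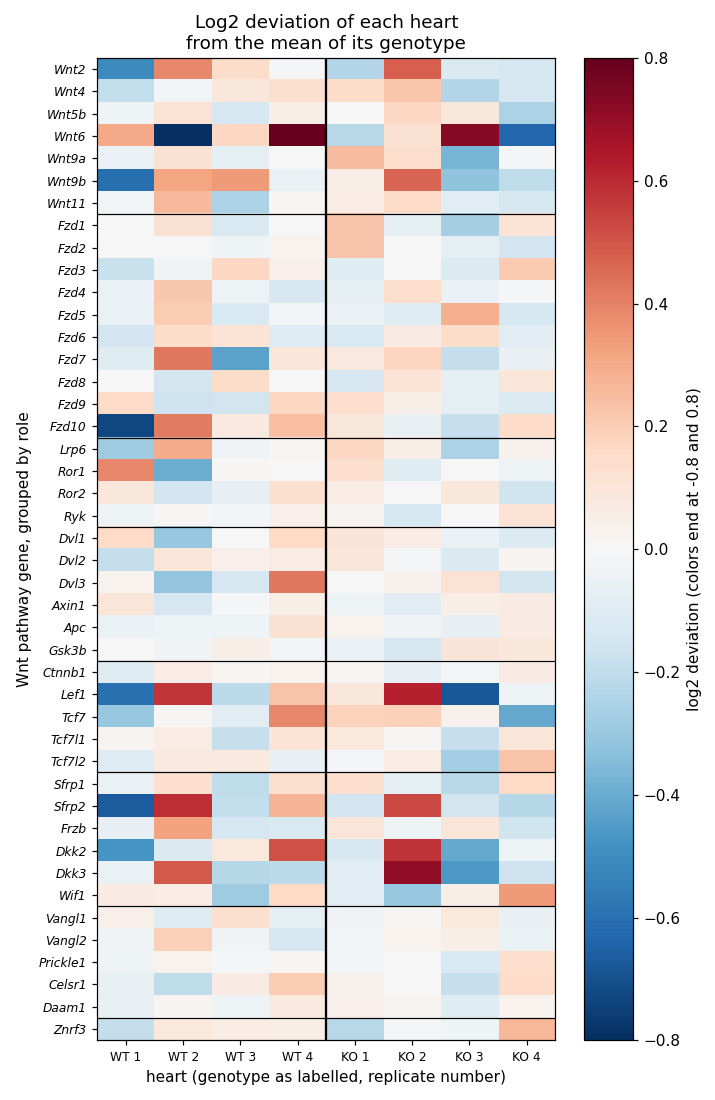
Log2 deviation of each heart (columns, WT 1 to 4 then SIRT1 KO 1 to 4) from the mean of its genotype for the 44 tested Wnt pathway genes (rows, grouped by role, black lines between roles); red is above and blue below the mean. Columns WT 2 and KO 2 are both red for Dkk3, Sfrp2, Wnt2 and Lef1, while the rows of Ctnnb1, Apc and Prickle1 are pale throughout.

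A further 84 genes of the pathway were listed beside these members, and 66 of them were tested (40 higher, 26 lower, median log2 fold change 0.04). On the brightest tested probe of each gene, 3 passed, all of them higher in the SIRT1 KO hearts, beside the 4.58% of all genes that were called. Unadjusted p-values under 0.05 were found for 11 of the 66, beside 20.4% of all genes. Counted by probe, these genes had 101 tested, of which 5 were called higher and 1 lower, beside 4.88% of all probes called and 3.97% called higher. The 3 on dimmer probes were Intu, a planar cell polarity effector, which was lower on A_52_P588096 (-0.42, limma adjusted p = 0.0351), Celsr2, a polarity cadherin, which was higher on A_52_P350148 (1.05, limma adjusted p = 0.0168), and Sost, a Wnt antagonist, which was higher on A_51_P213870 (0.86, limma adjusted p = 0.0378). The brightest probes of these 3 genes gave -0.08, 0.25 and -0.40, and another tested probe of Intu, A_51_P401176, gave 0.28 (limma adjusted p = 0.0702, genotypes not overlapping), so the probes of Sost and of Intu differed in sign. No probe matched Dact3, Prickle4 or Ccnd1, and 15 genes were measured but not bright enough to be tested.

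Porcn encodes the enzyme that attaches the lipid without which Wnt proteins are not secreted. Its log2 signal was -2.66, -2.93, -2.78 and -2.97 in the WT hearts and -2.31, -2.39, -2.20 and -2.29 in the SIRT1 KO hearts, with no overlap. Its log2 fold change was 0.54 (SE 0.09, 1.45-fold; limma adjusted p = 0.0115), and Porcn was called in 8 of 8 fits that left out a heart. Liver transcripts were highest in SIRT1 KO hearts 1 and 4 (summed log2 level of 5 liver markers 1.79 to 3.49 in WT and 2.04 to 5.62 in SIRT1 KO hearts, 4 tested and 0 called). Without those 2 hearts, a choice made after seeing the data, Porcn had a log2 fold change of 0.54 with a limma adjusted p of 0.0763, from 2 SIRT1 KO hearts. Ror2 then had 0.72 with a limma adjusted p of 0.0236. The part of liver RNA in both values was not tested.

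Wnt7b, a canonical ligand, was dim, with a log2 signal of -5.06, -5.05, -4.56 and -5.26 in the WT hearts and -4.17, -4.17, -4.13 and -4.46 in the SIRT1 KO hearts. Its log2 fold change was 0.75 (SE 0.15, 1.68-fold; limma adjusted p = 0.0253), and it was called in 3 of 8 fits that left out a heart, those without WT 3, SIRT1 KO 3 or SIRT1 KO 4. Lung epithelium also makes Wnt7b, and 0 of 5 lung markers were bright enough to be tested, with Sftpb, Sftpa1 and Nkx2-1 at background in every heart and a summed log2 level of -5.41 to -3.48 in the WT hearts and -3.95 to -3.09 in the SIRT1 KO hearts. The part of lung RNA in the Wnt7b value was not tested. Tle2, a Groucho corepressor of TCF factors, was 1.12, 0.80, 1.11 and 1.15 in the WT hearts and 1.77, 1.82, 1.35 and 1.65 in the SIRT1 KO hearts. Its log2 fold change was 0.61 (SE 0.12, 1.52-fold; limma adjusted p = 0.0278), and it was called in 1 of 8 such fits, the one without SIRT1 KO 3; with the replicate number as a block it did not pass (adjusted p = 0.0625). For both genes the genotypes did not overlap, and the calls depend on which hearts enter the fit and on the processing. With all hearts kept, neither passed with no filter on dim probes (limma adjusted p = 0.0547 for Wnt7b and 0.0597 for Tle2). Neither passed by the analysis of variance of the methods (adjusted p = 0.0882 and 0.0849).

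Rspo2, an R-spondin that keeps Frizzled at the cell surface, lay just outside the threshold in the opposite direction. Its log2 signal was -5.18, -4.49, -4.75 and -5.08 in the WT hearts and -6.28, -5.23, -6.02 and -5.80 in the SIRT1 KO hearts, with 4 WT arrays and 1 SIRT1 KO array well above background. It entered the test through the WT arrays, and with 3 SIRT1 KO arrays at background the size of its fitted difference, -0.96 on the log2 scale (limma adjusted p = 0.0505), is not fixed. Rspo2 was called lower in 6 of 19 alternatives, among them quantile normalization and cyclic loess, where it was called and Wnt7b was not. These fits use the same SIRT1 KO values at background, so their calls are not separate evidence of a lower level. Dkkl1, a Dickkopf-like protein, lay just outside the threshold with 0.60 (SE 0.15, limma adjusted p = 0.0535). Celsr3, a planar cell polarity cadherin, was at background in every WT heart and well above it in 3 SIRT1 KO hearts. Its log2 signal was -6.21 to -5.84 in the WT hearts and -5.36 to -4.99 in the SIRT1 KO hearts. With every WT heart at background, the size of this difference is not fixed. Celsr3 was too dim to enter the test and was called only when every probe was tested, in 1 of 19 alternatives. Rspo2, Dkkl1, Celsr3, Intu, Celsr2 and Sost were singled out after their values were seen.

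**Figure D5:**
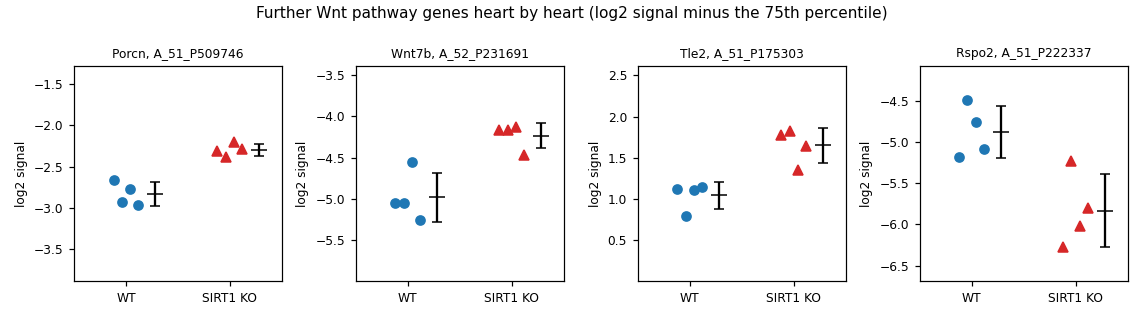
Log2 signal minus the 75th percentile of the array for Porcn, Wnt7b, Tle2 and Rspo2, each symbol 1 heart (circles WT, triangles SIRT1 KO, 4 each) and each bar the mean and SD of a genotype. The SIRT1 KO hearts lie above all WT hearts for Porcn, Wnt7b and Tle2 and below all WT hearts for Rspo2.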

How the data were processed

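Hearts of 4 WT and 4 SIRT1 KO embryos were each measured on 1 one-color array. The authors deposited the intensity of every spot from Agilent Feature Extraction (12.0.0.7 per the file headers), background-subtracted and not scaled between arrays, and a series table that equals the processed signal in 100% of the spots. Methods of the study name an analysis of variance with Benjamini-Hochberg correction. Here log2 of the processed signal was taken, the 75th percentile of each array subtracted, outlier and control spots left out, and spots of a probe averaged. Accessions were matched to RefSeq names (GRCm38.p6), which named 28223 of 41174 probes (68.5%). Probes that rose well above background on 4 or more of the 8 arrays, 25615 in all, were tested with limma 3.58.1 in R 4.3.3 and Benjamini-Hochberg adjustment over all of them (adjusted p under 0.05), after the fit had been tested on simulated data. A gene is reported by its brightest tested probe, and levels of different probes were not compared. Single values were also compared by exact two-sided permutation over hearts. Where each heart is 1 sample, p-values measure the spread between these hearts, and 4 per genotype limits the precision. Alternatives changed the scaling, background correction, filter, test, replicate block and hearts used, and 1 refitted the series table. Given heart by heart were Wnt pathway genes that passed, those whose genotypes did not overlap on a tested probe, and Axin2, Lef1, Ctnnb1, Wnt5a, Wnt11 and Wnt2 in any case; those of the further 84 genes that passed were named. The Wnt pathway genes, the further list and the marker lists were chosen with earlier results of these data known, and 1 marker is not reported here. Promoter sequences come from RefSeq. Python 3.11.15, numpy 2.4.6, pandas 2.3.3 and matplotlib 3.10.9 were used.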

Additional observations from a re-analysis of the deposited data

Results flagged for a closer look

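Among 94 groups of 4 hearts looked at, 8 held 1 heart that stood far from the other 3 by Dixon's test, which flags about 1 in 20 groups by chance. Wnt2 was -0.77 in SIRT1 KO heart 2 and -1.48 to -1.36 in the other SIRT1 KO hearts (log2 signal). Sfrp2 was 2.21 in SIRT1 KO heart 2 and 1.46 to 1.54 in the others. Frzb was -1.34 in WT heart 2 and -1.79 to -1.72 in the others, and Tle2 was 0.80 in WT heart 2 and 1.11 to 1.15 in the others. Apc was 0.81 in WT heart 4 against 0.64 to 0.66, and Znrf3 was -1.90 in WT heart 1 against -1.66 to -1.63. Daam1 was 2.94 in SIRT1 KO heart 3 against 3.06 to 3.08, and Wnt7b was -4.46 in SIRT1 KO heart 4 against -4.17 to -4.13. Heart 2 of either genotype accounts for 4 of the 8.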

How the results depend on the processing

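The brighter Ror2 probe passed in all 19 alternatives, and Porcn in 17 of 19, Wnt7b in 9 and Tle2 in 7. Of these alternatives, the series table holds the same signal as the reported fit and could only repeat it. Called probes of Wnt pathway genes, 1 as reported, numbered 8 (1 of them higher, Ror2) with no scaling between arrays, 4 (Ror2, Dvl2 and both Lef1 probes) with normexp on the median signal, chosen after seeing the data, 2 (Ror2 and Sfrp5) with no filter on dim probes, and 1 to 2 when each heart was left out. Further pathway genes called, 3 as reported, numbered 8 with no scaling (1 of them higher), 1 (Porcn) by the analysis of variance of the methods, 1 (Apc2) without SIRT1 KO hearts 1 and 4, chosen after seeing the data, and 1 to 4 when each heart was left out; only Porcn passed without WT 1, WT 2, WT 4 or SIRT1 KO 1. The median log2 fold change of the Wnt pathway genes, 0.04 as reported, was -0.0932 with median scaling and -0.184 with no scaling, where the median of all probes was -0.12 and -0.21. It was -0.00886 with quantile normalization, and ran from -0.00752 (without WT heart 1) to 0.0642 (without WT heart 4) when each heart was left out. Over all probes, 1250 calls as reported became 6352 with no scaling, 2566 with normexp and 546 by the analysis of variance. They were 988 with no filter on dim probes, 1185 with the replicate block and 646 to 1825 with hearts left out.

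With the replicate block, 2 of the 68 probes of Wnt pathway genes were called, Ror2 and Lef1 (the latter with log2 fold change 1.08, limma adjusted p = 0.0374), beside 1185 of all 25615 probes. The 5 further genes called were Wnt7b, Porcn, Dkkl1, Apc2 and, lower, Rspo2, which was well above background on only 1 SIRT1 KO array. Tle2 was not called (limma adjusted p = 0.0625). The correlations of deviations between hearts of 1 number were 0.06 to 0.21, so not each pair was above 0.1, although every heart correlated best with its own number and the design text speaks of pairs without saying what pairs them.

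Directions that turned belong to values that did not pass. Ctnnb1 on A_52_P424585 was 0.0149 with quantile normalization and 0.0110 with cyclic loess, and ran from -0.0534 to 0.00118 when each heart was left out. The dimmer Ror2 probe was -0.0954 with quantile normalization, -0.0590 with no scaling and -0.0878 without SIRT1 KO hearts 1 and 4, and ran from -0.0284 (without SIRT1 KO heart 1) to 0.255 when each heart was left out. Vangl1 on A_52_P449417 was -0.0302 with median scaling and -0.121 with no scaling, Vangl1 on A_52_P1037117 was 0.0199 with normexp, and Wnt11 was -0.0472 with no scaling. The cause was not tested. Normexp on the mean signal and naming probes by a gene column were planned and not run, for want of those columns in the tables used here. Of the 79 probes, 11 were too dim to be tested.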
